A study of Mus musculus with 10 samples.

Results

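Cells of the Gli1 lineage were compared between early and late postnatal ages in mouse supraspinatus entheses, where this shoulder tendon is anchored to bone. The early side held the libraries of postnatal days 7, 11 and 14 (P7, P11, P14), and the late side those of P21, P28 and P42. The P18 library lay between them and stayed out of the test. These 6 of the series' 10 libraries held 553 of the 647 plate wells kept, 285 early and 268 late. A well was kept when it had at least 500 detected genes and at most 10% of its counts in mitochondrially encoded genes. Counts were summed over the kept wells of each library.

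All 7 plate libraries came from Gli1CreERT;Ai14 mice given tamoxifen at P5 and P7. In such mice a drug-dependent Cre recombinase is made where Gli1 is active, and tamoxifen lets it switch on a red fluorescent reporter in those cells and their descendants. Every age carried the same alleles and the same drug, and the P7 plate has the age of the last dose. Entheses of several mice were pooled, and each age was 1 library of 96 wells, sorted as single cells without the dead-cell dye DAPI. The sort description does not make clear if the red cells were the ones collected, and P14 is missing from the ages it lists. The name Gli1 lineage therefore follows the sample titles. The spread inside a side therefore holds differences of age as well as of pools, and the p-values measure only the spread between these libraries. The remaining 3 libraries were droplet libraries of whole entheses of C57BL/6 mice at P11, P18 and P56, and their values stand beside the plate values with no test.

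Hedgehog signalling marks the cells that build the mineralised fibrocartilage of the enthesis, and Gli1 is both a transcription factor and a target of that pathway. The young enthesis is unmineralised cartilage-like tissue, and mineral spreads into it from the bone during postnatal growth. Many imprinted genes, which are read from only the maternal or the paternal copy, regulate fetal and early postnatal growth and are turned down in several organs as growth slows.

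The kept wells held 235722 to 506912 counts a library, with medians of 2283 to 4876 counts a well. The lowest depth was at P28, where 5.45% of counts were mitochondrially encoded, against 2.38% to 4.41% in the other libraries. The 10 broad mesenchymal markers, among them Col1a1, Dcn and Pdgfra, were detected in every library and made up 87047 to 128544 CPM (counts scaled to equal library totals). The 11 immune markers summed to 0 to 11 counts and the 6 erythroid markers to 0 to 4. Skeletal muscle markers were uneven, with 17.8, 334 and 1882 CPM at P7, P11 and P14, 98.3 at P18, and 9110, 55.2 and 12149 CPM at P21, P28 and P42. Gli1 itself had 1 to 9 counts a library, too few for the test, with 13.3, 25.7 and 3.95 CPM early, 2.59 at P18, and 9.68, 8.49 and 12.7 CPM late. Xist, the RNA of the inactive X chromosome, stood at 1085, 0 and 1562 CPM early, 51.7 at P18 and 794, 0 and 0 CPM late, so the pools differed in a way that age does not order.

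The deposited plate files came in 2 layouts. Values were written with decimals at P11, P21, P28 and P42 and without decimals at P7, P14 and P18. All late libraries thus share 1 layout, while 2 of the 3 early libraries have the other. Ribosomal protein genes, which code for the structural proteins of the ribosome, followed the layout. The 91 of them summed to 15.7%, 15.2% and 16.9% of counts in the libraries without decimals (P7, P14, P18). In those with decimals they summed to 8.25% at P11, 7.76% at P21, 3.01% at P28 and 2.29% at P42. P11, an early library, stood with P21. Gapdh, a glycolytic enzyme, stood at 505, 718 and 631 CPM at P7, P14 and P18 and at 11.4, 22.6, 12.7 and 25.3 CPM at P11, P21, P28 and P42. In all, 61 genes were over 30 CPM and at least 4-fold higher in every library without decimals than in any with decimals, and 0 genes were so the other way round. Of the 61 genes, 33 coded for ribosomal proteins and 20 had the names of predicted genes or pseudogenes. Within a layout the comparison is P21, P28 and P42 against P11 alone, or P18 against P7 and P14, and these values are given beside the results. Each has 1 library on 1 side, whose spread is taken to be that of the others. P18 also stood far below P7 and P14 in Xist, so without decimals age and this difference between pools cannot be told apart.

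**Figure D1:**
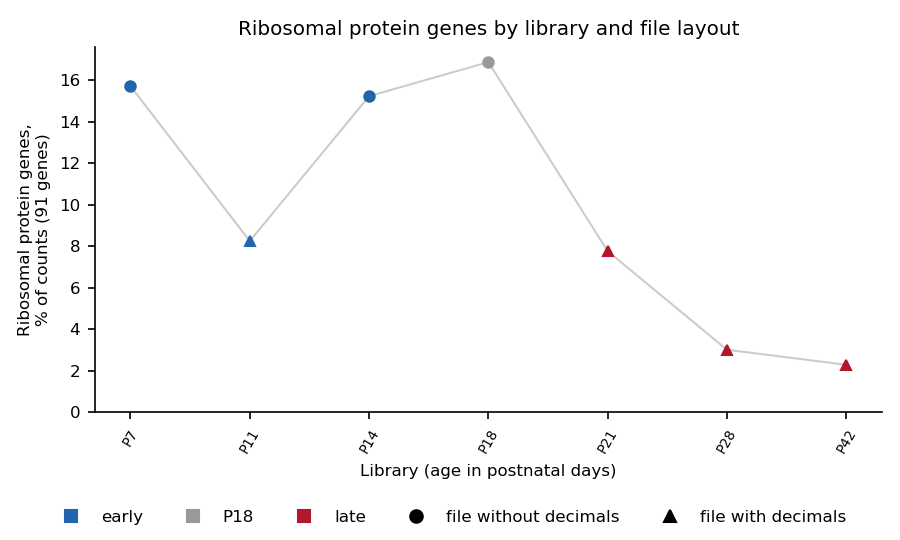
Share of each library's counts in 91 ribosomal protein genes (percent, linear axis) by library in order of age. Circles are files without decimals and triangles files with decimals, and colour marks the early side, P18 and the late side. The early P11 library (8.25%) lies next to P21 (7.76%), below the 15.2% to 16.9% of P7, P14 and P18.

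A gene was tested when 3 or more of the 6 libraries had 10 or more counts of it. Over the 4886 genes tested, edgeR's quasi-likelihood test with Benjamini-Hochberg adjustment called 1 gene, which is 0.0205% of those tested. That gene, Mest, fell. No gene was called higher (0%). At an unadjusted p under 0.05 there were 151 genes higher in late libraries (3.09%) and 292 lower (5.98%). Of those 292 lower genes, 50 coded for ribosomal proteins and 93 had names of predicted genes or pseudogenes. In a simulation of this comparison over 4886 genes, the test recovered 57.6% of genes changed by 2 on the log2 scale, 97% at 3 and 100% at 4, and 10 of its 180 calls were false. The simulated counts were drawn independently, with no effect of file layout or of age inside a side. Its shares therefore do not measure recovery in the real libraries, where Bglap at 8.84 and Rps27 at -6.74 were not called. All 3 late libraries lay above all 3 early ones for 396 genes (8.1%) and below them for 284 (5.81%). The median log2 difference, late minus early, was -0.01 over all genes tested. In sums over wells, fewer cells of a type and less RNA per cell cannot be told apart.

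The gene called was Mest, a paternally expressed imprinted gene that codes for a hydrolase-like protein of mesodermal tissue. The starts of 3 more genes are set beside it because the values that follow turn on them. Zim1 codes for a zinc finger protein and Igf2 for an insulin-like growth factor, both imprinted. Bglap codes for osteocalcin, the bone matrix protein of mature osteoblasts. Each window runs from 250 bases before to 50 bases after a RefSeq gene start on GRCm38.p6. Capitals mark each CG dinucleotide, the site of DNA methylation, in the 3 imprinted genes, and the core motif of RUNX factors (ACCACA) in Bglap. The windows are chr6:30737800-30738099 (plus strand) for Mest, chr7:6696383-6696682 (minus) for Zim1, chr7:142657447-142657746 (minus) for Igf2 and chr3:88384417-88384716 (minus) for Bglap.
Mest: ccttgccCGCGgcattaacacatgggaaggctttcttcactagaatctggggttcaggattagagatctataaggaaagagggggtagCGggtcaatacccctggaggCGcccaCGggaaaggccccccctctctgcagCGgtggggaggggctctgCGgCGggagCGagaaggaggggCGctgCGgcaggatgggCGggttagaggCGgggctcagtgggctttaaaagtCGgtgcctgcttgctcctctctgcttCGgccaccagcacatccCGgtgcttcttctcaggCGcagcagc
Zim1: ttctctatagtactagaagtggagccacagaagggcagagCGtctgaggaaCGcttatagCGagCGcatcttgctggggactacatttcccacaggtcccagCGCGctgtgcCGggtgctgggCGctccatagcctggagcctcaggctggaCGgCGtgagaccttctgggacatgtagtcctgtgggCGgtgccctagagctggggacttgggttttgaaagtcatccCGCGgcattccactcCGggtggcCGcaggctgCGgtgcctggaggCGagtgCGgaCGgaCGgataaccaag
Igf2: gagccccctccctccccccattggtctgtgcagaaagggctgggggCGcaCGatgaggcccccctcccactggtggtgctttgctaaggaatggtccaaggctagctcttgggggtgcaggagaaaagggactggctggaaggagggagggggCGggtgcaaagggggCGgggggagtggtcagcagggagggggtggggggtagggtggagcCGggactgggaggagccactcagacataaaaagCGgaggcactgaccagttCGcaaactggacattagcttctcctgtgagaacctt
Bglap: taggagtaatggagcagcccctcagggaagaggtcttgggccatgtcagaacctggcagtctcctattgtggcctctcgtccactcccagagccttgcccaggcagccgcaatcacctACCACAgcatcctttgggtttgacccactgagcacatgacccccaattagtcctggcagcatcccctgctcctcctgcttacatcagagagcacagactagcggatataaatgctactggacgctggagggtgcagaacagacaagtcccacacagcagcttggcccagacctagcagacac
The Mest window held 17 CG dinucleotides, that of Zim1 20 and that of Igf2 7, where the median over 32851 such windows was 7. No methylation was measured, and a motif or CG match describes the letters only.

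Mest (ENSMUSG00000051855, chr6:30723547-30748465, plus strand) stood at 358 CPM at P7, 296 at P11 and 262 at P14. It stood at 31.0 CPM at P18, then at 22.6 at P21, 25.5 at P28 and 31.7 at P42. Every late library lay below every early one, and P18 lay with the late side. The mean was 306 ± 48.4 CPM early and 26.6 ± 4.64 CPM late (SD, n = 3 each). The log2 difference was -3.67 with a standard error of 0.42, and the adjusted p of edgeR was 0.0126. Mest was lower by about the same amount within each layout, with log2 differences of -3.48 with decimals and -3.22 without. Its adjusted p was 0.194 with the layout as a term and 0.0973 with limma-voom, so the call was lost there. With P18 counted as late and layout as a term, the log2 difference was -3.36 and the adjusted p of edgeR 0.0098. Without the wells rich in markers of muscle or other cells, they were -3.58 and 0.0123.

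The fall was seen in wells as well as in sums. A Mest count was present in 50 of 96 wells at P7, 43 of 95 at P11 and 48 of 94 at P14. It was present in 10 of 94 wells at P18, and in 6 of 93, 5 of 89 and 7 of 86 wells at P21, P28 and P42. No single well carried the early values, since the largest well held 7.5% to 12.5% of a library's Mest counts. With every well thinned to 1000 counts, the shares were 27.1%, 22.1% and 20.2% early, 5.32% at P18 and 1.08%, 2.27% and 0% late. That thinning left out 1 well at P28 and 2 at P42, and 0 of 84 wells at P42 allows a share of up to 3.57%. The exact two-sided permutation p was 0.10, the smallest that 3 against 3 libraries can give. In the droplet libraries, cells with mesenchymal markers had 149.7 CPM at P11 (exact Poisson 95% interval 145.7 to 153.7), then 91.3 (86.9 to 95.9) at P18. By P56 it was 11.8 CPM (10.7 to 13.0). The intervals reflect counting error alone. At P18 the droplet value was thus nearer to the early droplet value than the plate value was to the early plates.

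Of the 18 imprinted growth genes listed, 17 were in the plate files and 14 could be tested. Nnat, Mirg and Magel2 were too low. All 14 tested members had negative log2 differences, with a median of -1.66 against -0.01 over all genes tested. Mest was the only one called. In 10 of the 14 every late library lay below every early library, against 5.81% of all genes tested, and in 10 the unadjusted p was under 0.05, against 5.98%. A gene that passed the count filter through its early libraries alone had fewer than 10 counts in every late library, which favours a lower late level. The counts of members given here therefore describe them and are no test. Negative differences overall and within both layouts were found for 13 of the 14, against 19.7% of all genes tested, and the exception was Sgce. The median was -1.38 with decimals and -1.05 without. At P18, 11 of the 14 lay below all early libraries, against 31.4% of all genes tested. DESeq2, run on the same counts, called 106 genes (2.17% of the 4884 with an unadjusted p). Of the 106, 31 coded for ribosomal proteins and 26 had names of predicted genes or pseudogenes, kinds that followed the file layout. The 106 also included 6 of the 14, namely Mest, H19, Peg3, Plagl1, Zim1 and Meg3, all lower late.

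**Figure D2:**
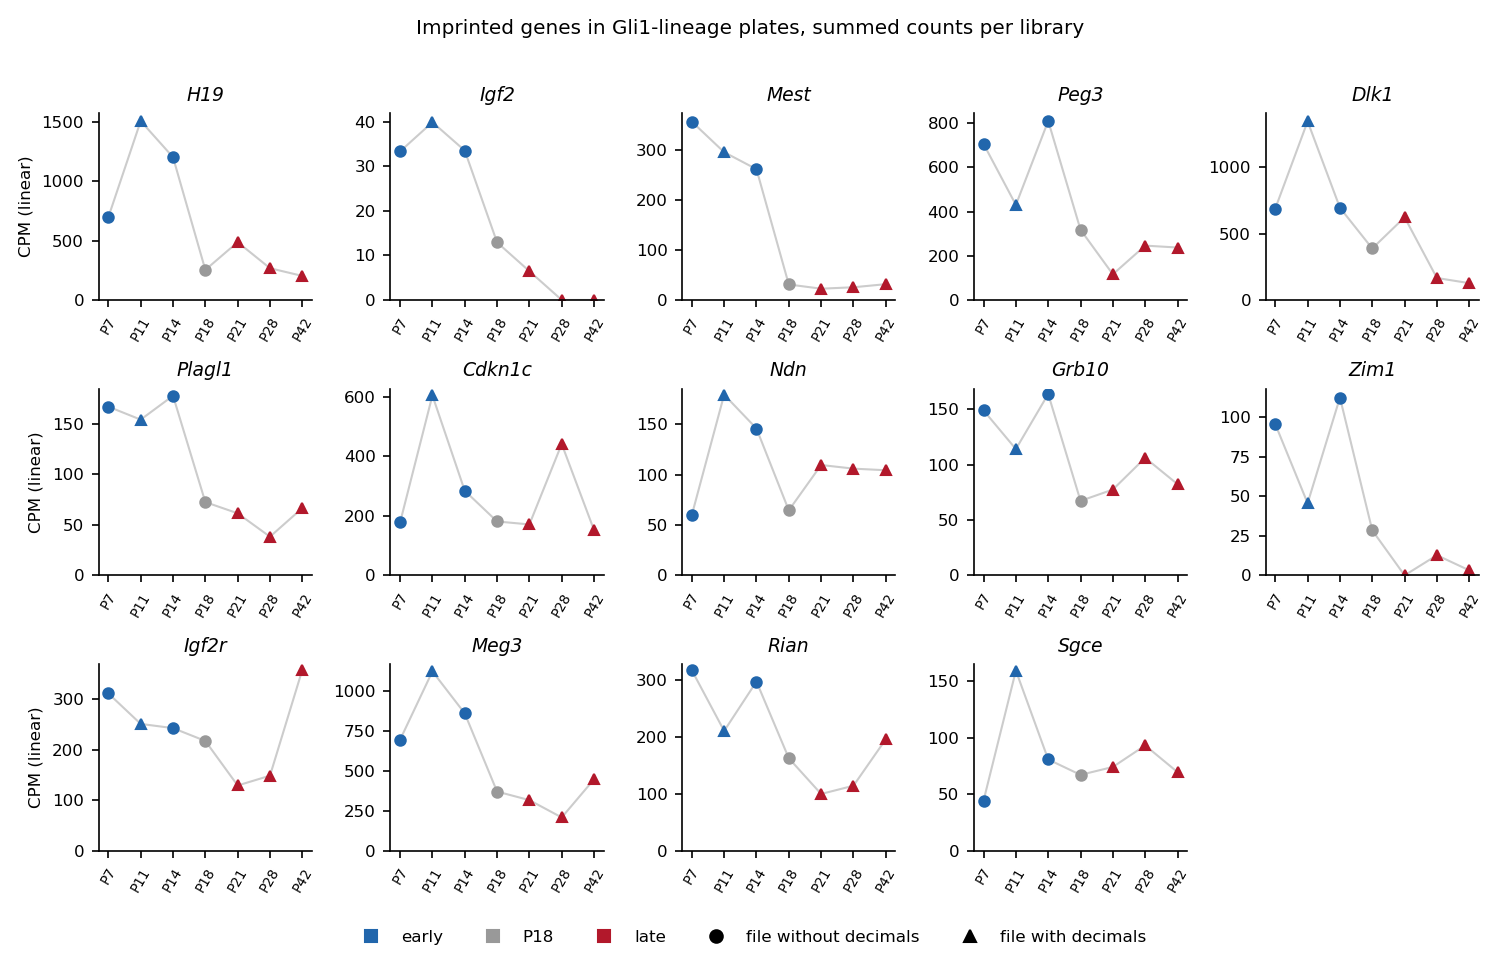
CPM (linear axis from 0) of the 14 tested imprinted genes in the 7 plate libraries in order of age. Blue is early, grey P18 and red late, and marker shape gives the file layout. Mest drops from 262 to 358 CPM at P7 to P14 to 31.7 CPM or less from P18 on, while Cdkn1c, Ndn, Igf2r and Sgce overlap between the sides.

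Zim1 and Igf2 had almost no late counts. Zim1 (chr7:6671269-6696450, minus strand) had 43, 16 and 57 counts early, 11 at P18, and 0, 3 and 1 late. Its CPM summed over a side were 19.1 times higher early, with an exact 95% counting interval of 7.26 to 71.3. Igf2 (chr7:142650766-142666816, minus strand) had 15, 14 and 17 counts early, 5 at P18, and 2, 0 and 0 late. Its early level was 15.2 times the late one (3.96 to 129), on only 2 late counts. The adjusted p of edgeR was 0.108 for Zim1 and 0.134 for Igf2. For neither did the sides overlap, but both genes passed the count filter through their early libraries alone. Both counting intervals leave out the spread between libraries.

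The paternally expressed regulators were lower as well. Plagl1 (chr10:13060504-13131694, plus strand), a zinc finger factor that binds other imprinted genes, stood at 167, 154 and 178 CPM early, 72.4 at P18, and 61.3, 38.2 and 66.5 late. Its log2 difference was -1.73 ± 0.37 (SE; edgeR adjusted p 0.119), and -1.48 and -1.16 within the layouts with and without decimals. Peg3 (chr7:6703892-6730431, minus strand), another zinc finger factor, stood at 707, 430 and 811 CPM early, 318 at P18, and 116, 246 and 238 late. Dlk1, a membrane protein of the Notch ligand type that restrains differentiation, stood at 689, 1346 and 694 CPM early, 388 at P18, and 623, 165 and 127 late. In these 3 genes the sides did not overlap, but Dlk1 at P21 was only just below the early values. Its log2 difference was -2.16 with decimals and -0.74 without.

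The maternally expressed non-coding RNAs lay in the same order. H19 (chr7:142575529-142578143, minus strand), the growth-restraining neighbour of Igf2, stood at 698, 1508 and 1203 CPM early, 253 at P18, and 487, 267 and 203 late. Its log2 difference was -1.97 ± 0.52 (SE; edgeR adjusted p 0.169), and it was -2.26 and -1.81 within the layouts with and without decimals. A count of H19 was present in 53 of 96, 74 of 95 and 69 of 94 early wells, 27 of 94 at P18, and 33 of 93, 17 of 89 and 22 of 86 late. Meg3 stood at 694, 1120 and 858 CPM early, 370 at P18, and 316, 208 and 446 late. Rian, from the same cluster as Meg3 and Dlk1, stood at 318, 211 and 298 CPM early, 163 at P18, and 100, 114 and 196 late. Both were below every early library at all late ages.

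The maternally expressed growth inhibitors were less uniform. Grb10, an adaptor that dampens insulin and IGF signalling, stood at 149, 114 and 164 CPM early, 67.2 at P18, and 77.5, 106 and 82.3 late, with a log2 difference of -0.86 (edgeR adjusted p 0.488). Cdkn1c, a cyclin-dependent kinase inhibitor, overlapped with 178, 604 and 284 CPM early, 181 at P18, and 171, 441 and 152 late. Igf2r, which clears IGF2, overlapped as well, with its highest value of 358 CPM at P42. The paternally expressed Ndn and Sgce were lowest at P7 and overlapped with the late side.

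In the droplet libraries 13 of the 14 genes had over 3 UMIs (counted molecules) at both P11 and P56, and 12 were lower at P56. Over all genes tested on the plates, 44.8% of those measured were lower at P56. H19 went from 494 CPM at P11 and 310 at P18 to 0.518 at P56, and Igf2 from 12.1 and 6.4 to 0.23. Dlk1 had its highest droplet value at P18, with 357, 633 and 6.13 CPM. Sgce was the one higher at P56, with 85.5 CPM at P11 and 99.4 at P56. Droplet and plate mice differ in genotype, sort and assay, and P56 is older than any plate.

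The palindromic letters GGGGCCCC, a core of the PLAGL1 site, were searched in the same windows on the gene's strand, which covers both strands. They were found in 354 of 32851 windows (1.08%). Of the imprinted list 14 genes had a window, 21 windows in all, and 1 gene held the motif, Peg3. The Mest, Zim1 and Igf2 windows printed above held none.

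Of the 16 mineralisation genes listed, 6 were tested, 10 were too low and none was called. The 6 tested, Alpl, Ibsp, Spp1, Bglap, Dmp1 and Smpd3, all had positive log2 differences, with a median of 2.20 against -0.01 over all genes tested. In 5 the unadjusted p of edgeR was under 0.05 (3.09% of all genes tested), and in 2, Bglap and Smpd3, every late library lay above every early one (8.1%). All 6 were positive overall and within both layouts, against 20.3% of all genes tested. Bglap passed the count filter through its late libraries alone and so had to be higher late. These counts describe the members and are no test. The median was 3.01 with decimals and 1.46 without. DESeq2 called 3 of the 6 (Bglap, Spp1 and Smpd3), all higher late, against 2.17% of all genes. In the layout without decimals, with P18 as its only later library, edgeR called 13 genes (0.266%). They included Bglap and Dmp1, higher at P18, and also Xist and Tsix. At P18, 3 wells held 91.2% of the Bglap counts and 90.1% of the Dmp1 counts.

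Bglap (chr3:88383501-88384464, minus strand) had 0, 1 and 4 counts early, 57 at P18, and 1268, 501 and 16 late. These are 0, 2.85 and 7.89 CPM early, 147 at P18, and 4092, 2125 and 50.7 late. The late libraries lay above the early ones, with P42 far below P21 and P28. The log2 difference was 8.84 ± 1.53 (SE; edgeR adjusted p 0.108), a fitted value against an early side with 5 counts. A few wells carried most of it. At P21, 3 of 93 wells held 94.0% of the Bglap counts, and the largest well alone 47.1%. At P28 the largest of 89 wells held 80.6%. A count was nevertheless present in 49 wells at P21 and 29 at P28, of which 3 and 2 had 10 or more. Whether counts passed between wells of a plate was not tested. Bglap2, a near-identical neighbour whose reads may be split with Bglap, was too low for the test, with 0, 6 and 4 counts early, 19 at P18, and 610, 241 and 8 late.

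Dmp1, an acidic matrix protein of osteocytes, had 2, 1 and 11 counts early, 91 at P18, and 78, 46 and 0 late. It was high at P18, P21 and P28 and at 0 at P42, so the sides overlapped, and 1 well held 75.8% of the P18 counts. Spp1, the gene of osteopontin, a phosphorylated protein that binds mineral, stood at 309, 296 and 396 CPM early, 514 at P18, and 3343, 3334 and 162 late. P42 was the lowest of all 7 libraries, and the largest well held 38.8% at P21 and 60.3% at P28. Mmp13, a collagenase of hypertrophic cartilage and bone, was too low for the test. It had 0, 0 and 2 counts early, 0 at P18, and 51, 48 and 0 late. Its largest well held 60.8% of the counts at P21 and 66.7% at P28. Bglap, Dmp1, Spp1 and Mmp13 thus shared high values at P21 and P28 and low ones at P42. These high values rested on few wells. At P21 and P28 the 3 wells with most counts of a gene held 64.1% to 94.0% of its counts. Of the 10 mineralisation genes too low for the test, Mepe, Col10a1 and Sp7 had lower mean CPM late than early. The rest had higher means late. Mepe had 0, 1 and 31 counts early, 0 at P18, and 0, 2 and 3 late, and 1 well held 93.5% of its P14 counts. Col10a1 had 0, 0 and 3 counts early, 26 at P18, and 0 in every late library. Sp7 had 0 to 3 counts a library.

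Ibsp, Alpl and Smpd3 had their highest values at P42. Ibsp, the gene of bone sialoprotein, which nucleates mineral, stood at 167, 1391 and 657 CPM early, 1846 at P18, and 904, 2397 and 2916 late. P21 was lower than P11, so the sides overlapped, and the log2 difference was 1.39 ± 0.70 (SE; edgeR adjusted p 0.617). Alpl, the phosphatase that frees phosphate for mineral, had 2, 3 and 26 counts early, 15 at P18, and 13, 18 and 36 late. Smpd3, a sphingomyelinase needed for skeletal mineral, stood at 35.6, 22.8 and 61.1 CPM early, 59.5 at P18, and 139, 136 and 206 late. Its sides did not overlap, and its log2 difference was 1.81 ± 0.44 (SE; edgeR adjusted p 0.138), but only 0.39 within the layout without decimals.

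**Figure D3:**
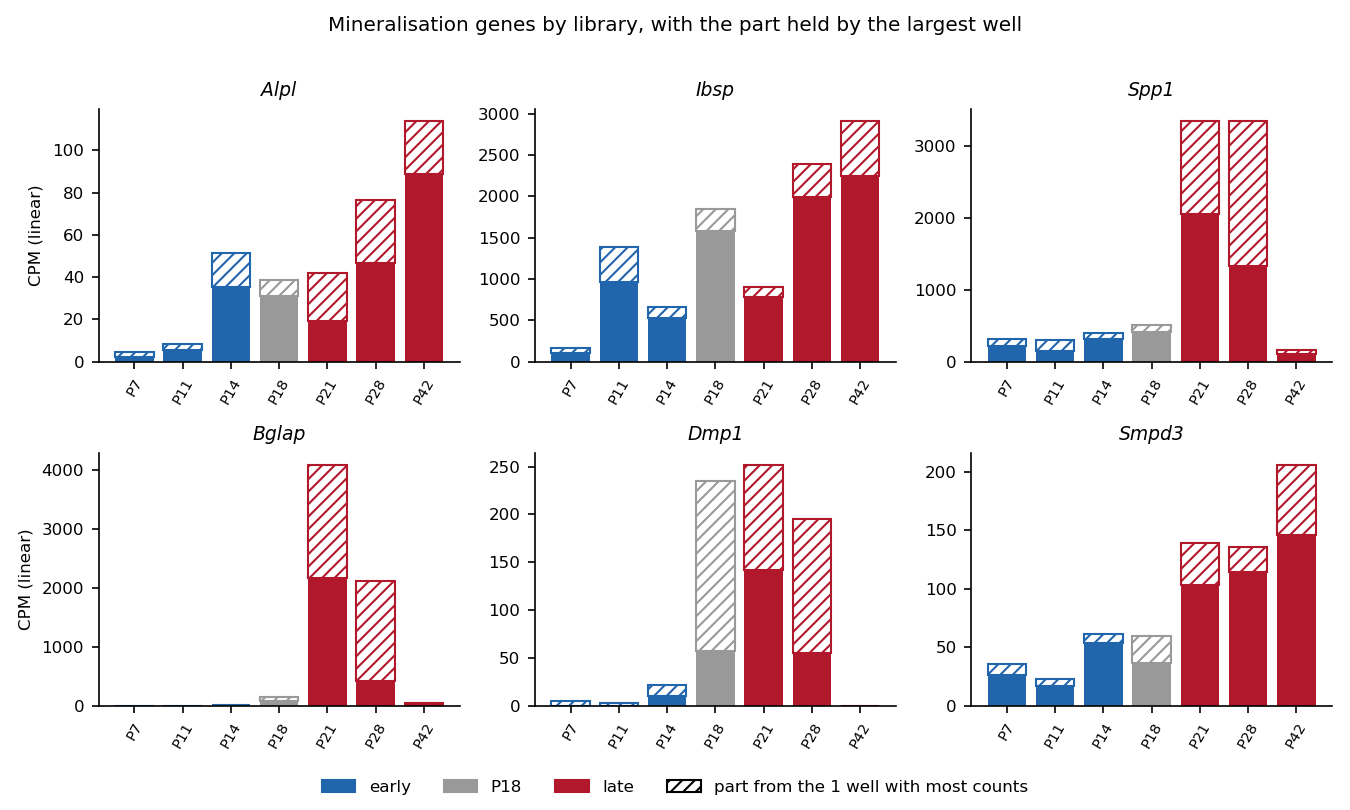
CPM (linear axis from 0) of the 6 tested mineralisation genes in the 7 plate libraries. The hatched part of each bar comes from the single well with most counts of that gene. Bglap and Spp1 are high at P21 and P28 with 1 well holding 38.8% to 80.6% of the counts, while Ibsp, Alpl and Smpd3 are highest at P42.

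In droplets all 6 were highest at P18, 5 of the 6 were lower at P56 than at P11, and Bglap was higher. Of all genes tested on the plates and measured in droplets, 44.8% were lower at P56. From P11 to P56, 1 of the 6 (16.7%) thus had its plate direction, against 58.8% of all genes. Ibsp had 295, 2922 and 33.3 CPM at P11, P18 and P56, and Bglap 28.4, 322 and 39.5. Among the inhibitors of mineral and the phosphate transporters, 5 of 9 were tested, 1 had an unadjusted p under 0.05 (3.09% of all genes tested, higher) and none was called. That gene was Ank, which exports pyrophosphate. It stood at 104, 62.7 and 84.8 CPM early, 111 at P18, and 132, 246 and 165 late, without overlap (edgeR adjusted p 0.502). The RUNX core ACCACA was found, on either strand, in 6 of the 12 mineralisation genes with a window (Bglap, Dmp1, Mepe, Mmp13, Runx2, Spp1), or 40% of their 15 windows. It was found in 16.8% of all 32851 windows.

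**Figure D4:**
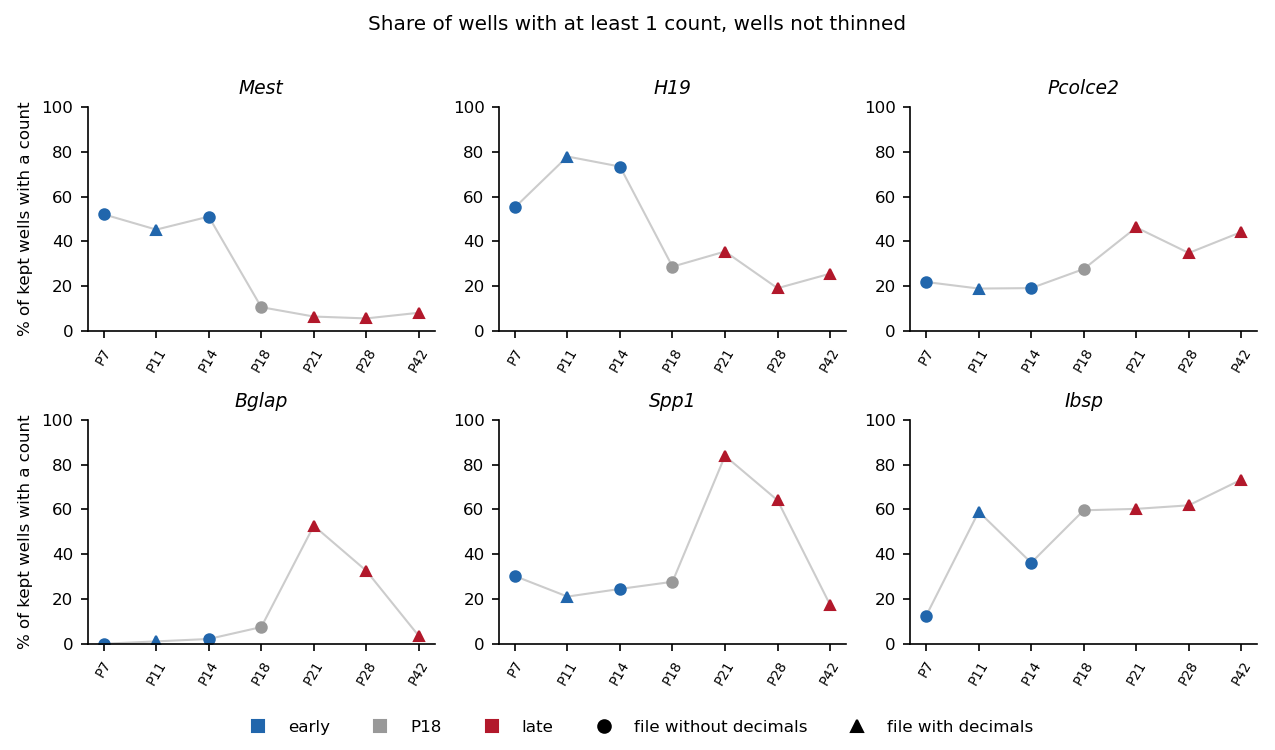
Percent of kept wells with at least 1 count of 6 genes, wells not thinned, by library. Mest and H19 are lower from P18 on, Pcolce2 and Ibsp are highest at late ages, and Bglap and Spp1 peak at P21 with P42 back near the early libraries. Depth a well differs between libraries (medians of 2283 to 4876 counts).

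Cartilage genes lay on both sides of 0. Of 24 listed, 22 were tested with a median log2 difference of 0.00, 11 positive and 11 negative, and none was called. The median was 0.95 within the layout with decimals and -0.21 without. Comp, a pentameric matrix protein of tendon and cartilage, stood at 667, 1123 and 864 CPM early, 1070 at P18, and 1604, 3415 and 4034 late. Prg4, the gene of the lubricant lubricin, stood at 685, 485 and 497 CPM early, 1515 at P18, and 1265, 1179 and 3432 late. The sides did not overlap in either, and edgeR's adjusted p was 0.285 and 0.328. Matn3, a cartilage matrilin, lay the other way, with 73, 10 and 68 counts early, 6 at P18, and 4, 1 and 0 late. Its early level was 19.9 times the late one (exact 95% counting interval 8.34 to 62.2), and edgeR's adjusted p was 0.108. That interval leaves out the spread between libraries, which stood at 162, 28.5 and 134 CPM early. Matn3 passed the count filter through its early libraries alone, which favours a lower late level. Matn1, the hyaline cartilage matrilin, was too low for the test. It had 107 and 141 counts at P7 and P14, 1 at P21 and 0 in the other 4 libraries, P11 among them. Col2a1, the collagen of cartilage, overlapped, with 9451, 5034 and 16456 CPM early, 11550 at P18, and 7635, 7861 and 6104 late.

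Tendon genes were lower late in 11 of 12 tested, with a median of -0.83, and none was called. The median was -0.13 within the layout with decimals and -0.76 without. Of all genes tested, 2465 of 4886 were negative. Negative differences overall and within both layouts were found for 5 of the 12, against 19.7% of all genes tested. In 3 the unadjusted p of edgeR was under 0.05 (5.98% of all genes tested, lower). In 3, Tnmd, Kera and Col14a1, every late library lay below every early one (5.81%). Tnmd (chrX:133850980-133865577, plus strand), the tendon membrane protein tenomodulin, stood at 3605, 2779 and 1438 CPM early, 1259 at P18, and 400, 479 and 1000 late. Its log2 difference was -2.22 ± 0.57 (SE; edgeR adjusted p 0.164), and -2.17 and -0.93 within the layouts with and without decimals. Scx, the tendon transcription factor, was carried by P7 with 851 CPM, against 25.7 and 23.7 at P11 and P14, 228 at P18, and 536, 17.0 and 69.7 late. Col1a1 and Col1a2, the chains of type I collagen, had log2 differences of -0.72 and -0.77 (edgeR adjusted p 0.752 and 0.708).

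Genes of Cd34 and Ly6a fibroblasts, cells of loose connective tissue, had a median log2 difference of 0.80 over the 10 of 12 tested, and none was called. It was 0.52 with decimals and 1.10 without. In 3 the unadjusted p was under 0.05 (3.09% of all genes tested, higher), and in 4, Ly6a, Ly6c1, Cd55 and Gsn, every late library lay above every early one (8.1%). Gsn, the actin-severing protein gelsolin, stood at 213, 1913 and 671 CPM early, 1138 at P18, and 4382, 2478 and 3749 late. Ly6c1 stood at 82.2, 180 and 170 CPM early, 359 at P18, and 632, 259 and 408 late. Cd34 itself overlapped, with a log2 difference of -0.21.

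Of the 15 Hedgehog pathway genes only 6 were tested, since Gli1, Ptch1, Hhip and 6 more had too few counts. None was called. Pth1r, the receptor of parathyroid hormone-related protein, stood at 24.4, 51.3 and 71.0 CPM early, 59.5 at P18, and 155, 132 and 155 late. The sides did not overlap, and the log2 difference was 1.43 ± 0.42 (SE; edgeR adjusted p 0.236). It was 1.49 with decimals and 0.40 without, and the droplet values of Pth1r were 82.3, 205 and 24.6 CPM at P11, P18 and P56. Boc, a Hedgehog co-receptor, stood at 62.2, 65.6 and 55.2 CPM early, 67.2 at P18, and 71.0, 132 and 149 late. The cell cycle genes had a median of -1.39 over the 6 of 20 tested, but -0.50 and -0.25 within the layouts, and none was called.

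Outside the lists, Pcolce2, Fxyd3, C4b, Tmem176a, Emb and Pecam1 were among the genes higher late with the smallest p, and none was called. Pcolce2 (chr9:95637601-95698096, plus strand), an enhancer of procollagen processing, stood at 71.1, 74.1 and 71.0 CPM early, 160 at P18, and 287, 293 and 336 late. The sides were far apart and the spread within each was small, with 72.1 ± 1.76 CPM early and 305 ± 26.5 late (SD, n = 3 each). Picking genes by the smallest p favours such values. Its log2 difference was 1.92 ± 0.36 (SE; edgeR adjusted p 0.108), and 2.01 and 1.26 within the layouts with and without decimals. In droplets Pcolce2 had 277, 403 and 1111 CPM at P11, P18 and P56. Fxyd3, an ion pump regulator, had 1, 3 and 14 counts early, 46 at P18, and 51, 30 and 24 late. Its droplet values were 30.7, 238 and 4.31 CPM, lowest at P56. C4b, Tmem176a and Emb were also above every early library in every late one, but their P18 values lay within or below the early range. C4b passed the count filter through its late libraries alone and so had to be higher late.

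Pecam1 was also among these genes, with 13.3, 28.5 and 3.94 CPM early, 7.76 at P18, and 51.6, 522 and 450 late. It is an adhesion protein of endothelial cells, but the other 6 endothelial markers stayed at or near 0 in those libraries. Cdh5 was at 0 at P28, and Kdr, Emcn, Cldn5, Egfl7 and Esam were at 0 at both P28 and P42.

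Among the genes lower late with the smallest p, C1qtnf3 stood apart from the layout pattern. This secreted C1q-type protein stood at 236, 85.5 and 158 CPM early, 28.4 at P18, and 19.4, 17.0 and 31.7 late, with a log2 difference of -2.97 ± 0.52 (SE; edgeR adjusted p 0.108). It was -1.91 with decimals and -2.69 without. In droplets C1qtnf3 had 345, 31.7 and 72.3 CPM. The others were Zim1 and Mest, described above, and Gm14303, Rpl17, Rpl10a-ps1, Rps27 and Rps23, which are genes of the ribosomal protein and predicted kind. Rps27 stood at 2672, 42.8 and 2740 CPM early, 3253 at P18, and 29.0, 12.7 and 15.8 late, so P11 lay near the late libraries that share its layout. In these 5 genes file layout and age cannot be told apart. Rps27 and Gm14303 also passed the count filter through their early libraries alone.

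**Figure D5:**
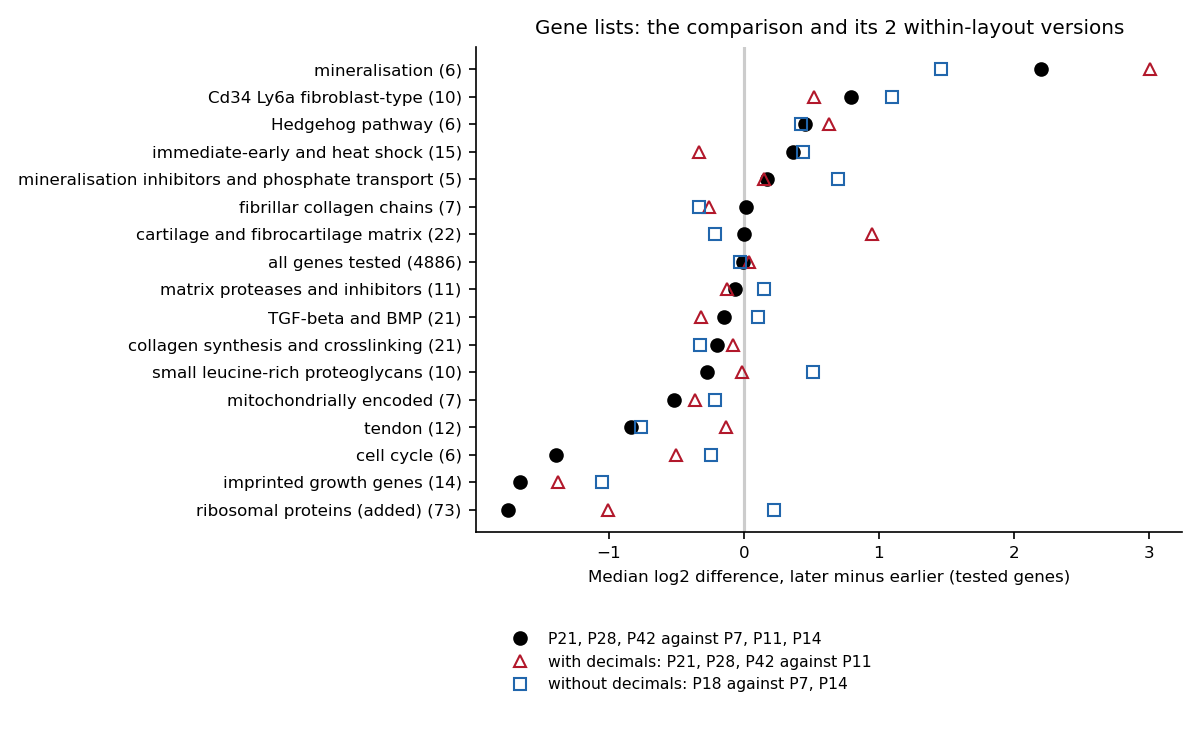
Median log2 difference, later minus earlier, over the tested genes of each list (number tested in brackets). Black circles give late against early, red triangles the layout with decimals and blue squares the layout without. Mineralisation genes (2.20, 3.01 and 1.46) and imprinted genes (-1.66, -1.38 and -1.05) keep their side in all 3, while ribosomal protein genes (-1.74, -1.01 and 0.23) do not.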

How the data were processed

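Single cells were sequenced from the 3' end on 96-well plates (7 libraries, 1 an age) and in droplets (3 libraries). The deposited values were counts: per the file headers, whole-number counts per gene and well or per gene and barcode, not normalised. Reads were assigned on mm10, per the submitters' processing notes; the aligner, annotation, strand use and the use of molecular identifiers on the plates are not given in the sources used here. Overlapping or antisense genes can therefore share reads, and near-identical genes can split them. Counting 3' ends allows no comparison of levels between genes.

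Wells with at least 500 genes and at most 10% mt- counts were summed per library. The test was edgeR 4.0.16 (R 4.3.3), TMM scaling, quasi-likelihood, 4 residual degrees of freedom, on genes reaching 10 counts in 3 or more libraries. Each standard error (SE) of a log2 difference was back-calculated, as its absolute size divided by the square root of the test's F statistic. Genes named are the 8 smallest p in each direction, 17 genes chosen for the tissue, and 2 per list with the smallest p. Of these, 1 gene is not reported here. Other list members, and Xist, Gapdh, Matn1 and Mmp13, were named after their values were seen. Members and lists were chosen with earlier results of these data known, and the ribosomal list was added after seeing the data. Tests were two-sided. The script was tested on simulated data. Alternatives included DESeq2 1.42.0, limma 3.58.1, other filters and layout. The 7 plates use the same 96 well barcodes. Droplet cells passed the same filter and held at least 0.5% mesenchymal marker UMIs, more than of other markers (2355, 1527 and 4341 cells); libraries shared 4 to 8 barcodes a pair. Doublets were not called.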

Additional observations from a re-analysis of the deposited data

Results flagged for a closer look

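For 10 of the named genes every later library moved one way within the layout with decimals (P21, P28 and P42 against P11) and P18 moved the other way against both P7 and P14 within the layout without decimals. The difference between the layouts was not tested, and the ages compared differ as well. The log2 difference of C4b, a complement protein, was 2.39 with decimals and -1.28 without. Acan, the cartilage proteoglycan, had 1.38 and -0.90. Omd, a keratan sulphate proteoglycan of bone, had -1.57 and 1.29, and its P18 plate value of 517 CPM was the highest of the 7, as was its P18 droplet value of 1307 CPM among the 3 droplet libraries. Fstl1, a secreted follistatin-like protein, had -0.94 and 0.18. H2afz, a histone variant, had -1.22 and 0.21, and mt-Co1, a mitochondrially encoded oxidase subunit, -0.42 and 0.31. Among genes of the ribosomal and predicted kind, Gm14303 had -2.48 and 0.50, Rpl17 -1.71 and 0.36, Rpl10a-ps1 -2.43 and 0.41, and Rps27 -1.14 and 0.36.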

How the results depend on the processing

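No paired analysis was possible because the labels number no replicates and an age was 1 library. Mest was lower under all 27 alternatives and called in 17. Its adjusted p ran from 1.51e-08 to 0.276. It was 0.276 with decimals alone, 0.168 for a slope on log2 age, 0.217 with P21 alone as late, 0.0505 with P18 as early, 0.0601 without P7, 0.0524 without P14, 0.243 without P28 and 0.0658 without P42. The number of genes called was 106 with DESeq2, 353 with no filter on counts, 15 with P18 as early, and 0 with limma-voom, with layout as a term, with decimals alone and for the slope. Leaving out 1 library gave 0 to 295 calls, 43 without P11 and 295 without P21. Of those 295, 60 were ribosomal protein genes and 133 predicted genes or pseudogenes. Library totals as scaling moved the median of all genes from -0.01 to 0.15. Layout without decimals alone, P18 late with layout as a term, P21 alone as late, and leaving out ribosomal and predicted genes were alternatives chosen after seeing the data. The first called 13 genes, Mest, Bglap, Dmp1, Matn3 and Col12a1 among them, as well as Xist and Tsix.

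The imprinted median stayed negative, at -1.51 with library totals, -1.58 with at least 100 counts, -1.49 under stricter well filters, -1.57 without wells rich in other markers, -1.51 as mean CPM over wells, -1.40 with layout as a term, -1.38 with decimals, -1.05 without, -1.48 with P18 late, -1.23 with P18 late and layout, -1.46 with P18 early, -1.45 with P21 alone, and -1.67 to -1.39 leaving out 1 library. With P21 alone as late the median was -1.95 for tendon, -0.75 for fibrillar collagens, -0.31 for proteases, 0.036 for Hedgehog genes, -0.55 for TGF-beta and BMP genes and -0.064 for mitochondrial genes. With layout as a term it was 0.93 for cartilage and -0.50 for cell cycle genes, and with decimals alone 0.95 and -0.50. Without decimals alone it was 0.70 for mineralisation inhibitors, 0.52 for leucine-rich proteoglycans (0.14 under stricter well filters), -0.25 for cell cycle and -0.21 for mitochondrial genes. With P18 late and layout it was -0.32 for proteases, -0.33 for cell cycle and -0.073 for mitochondrial genes. Leaving out 1 library gave 0.11 to 0.51 for mineralisation inhibitors, -0.56 to 0.31 for fibrillar collagens, -0.17 to 0.059 for collagen synthesis, -0.34 to 0.019 for proteases and -0.80 to -0.30 for mitochondrial genes.

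Signs reversed for genes not called. Without decimals alone the values were -0.043 for Pecam1, -1.28 for C4b, 0.50 for Gm14303, 0.36 for Rpl17, 0.41 for Rpl10a-ps1, 0.36 for Rps27, 0.039 for Rps23, 0.35 for Sox9, 0.18 for Col3a1, 1.29 for Omd, 0.14 for Fmod, 0.18 for Mmp23 and Fstl1, 0.21 for H2afz and 0.31 for mt-Co1. Col2a1, Acan and Scx were at 0.475, 1.36 and 2.96 with layout as a term, 0.49, 1.38 and 2.98 with decimals alone, and 0.23, 0.28 and 0.92 with P18 late and layout, where Sox9 was at 0.16. Acan and Scx were at 0.027 and 0.047 with limma-voom and at 0.22 and 0.27 as mean CPM over wells, where Sox9 was at 0.023 and Cd34 at 0.18. Sox9 was at 0.016 with library totals and 0.025 with P18 late. With P21 alone, Sox9, Scx and Cd34 were at 0.19, 0.62 and 0.19 and mt-Nd6 at -0.74, and Cd34 was at 0.043 for the slope. Leaving out 1 library gave -0.64 to 0.12 for Acan, -0.31 to 0.11 for Sox9, -2.97 to 2.97 for Scx, -0.56 to 0.34 for Cd34 and -0.94 to 0.001 for Loxl1. The causes were not tested, and P28, with 235722 counts, limits every gene near 10 counts.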
